A study of Mus musculus with 15 samples.

Results

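The genes described here encode the subunits of mitochondrial oxidative phosphorylation. They were taken from the normalized read count table by their symbols, as the rows named Ndufa, Ndufb, Ndufc, Ndufs or Ndufv with a number, Sdha to Sdhd, Uqcr with any suffix, Cox4 to Cox8 subunits, or Atp5 with any suffix. This gave 82 of 53379 gene rows. Of these, 79 had a read in some library and 76 passed the filter for testing, a level of 10 or more normalized reads reached by 3 or more libraries, which left 12673 genes in all. The choice used no measured value.

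Oxidative phosphorylation is the last stage of respiration. Complexes I (NADH dehydrogenase), II (succinate dehydrogenase), III (cytochrome bc1) and IV (cytochrome c oxidase) pass electrons to oxygen, and all but complex II pump protons across the inner mitochondrial membrane. Complex V (ATP synthase) lets the protons back and makes ATP. Most subunits are encoded in the nucleus, made in the cytosol and imported, while a small set of core subunits is encoded by mitochondrial DNA.

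The libraries were bulk RNA-seq of mouse fetal liver cells that a retrovirus carrying MLL-ENL had transformed, grown with murine interleukin-3 at 10 ng per ml. WTFL cells, labelled wild-type, carried floxed Cebpa and Cebpb alleles, which encode the myeloid transcription factors C/EBPα and C/EBPβ. dKO cells had lost both genes after treatment with cell-permeable Cre and expressed GFP, and dKO-LAP* cells were dKO cells with GFP and LAP*, the long isoform of C/EBPβ, from rat. There were 2 clones from different mice, C1 and C2, each with WTFL and dKO cells, and dKO-LAP* cells in C1. Each of the 5 groups was thus 1 clonal line with 3 libraries made at different times, and p-values measure the spread between such libraries, not between clones or mice. No GFP is listed for WTFL cells, and dKO clones grew out of a growth crisis, so deletion, vector and outgrowth cannot be told apart.

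The libraries held 9212237 to 13613500 reads on genes. Cebpa had 902.8 to 1437 normalized reads in WTFL C1 cells, 1653 to 2267 in WTFL C2 cells, 0 in all dKO libraries and 0.92 in 1 dKO-LAP* library. Cebpb had 1353 to 1634 normalized reads in the WTFL libraries, 0 in the dKO libraries and 2538 to 4216 in the dKO-LAP* libraries. All 8 myeloid progenitor markers exceeded 3 reads in a library. Their summed level was 74930 to 81330 normalized reads in WTFL and 110400 to 169300 in dKO and dKO-LAP* libraries. A few abundant genes can hold most of such a sum, so it does not show how each marker moved. The hepatocyte markers Alb, Apoa1, Ttr and Ahsg and the erythroid markers Alas2 and Hba-a2 were at 0, although the cells came from fetal liver. Over the whole lists, 1 of 5 hepatocyte markers (summed 4.61 to 164.6 normalized reads), 2 of 7 erythroid (2.04 to 18.33), 0 of 4 lymphoid (0 to 3.6) and 1 of 3 endothelial (116.6 to 570) exceeded 3 reads in a library. In bulk RNA, fewer cells of a type and less RNA per cell cannot be told apart. WTFL C1 replicate 3 stood apart for these subunits. Their summed share of gene reads was 1.117% there, against 0.959% and 0.917% in the other WTFL C1 libraries.

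Promoters are shown for subunits of the electron transport chain with letters of a nuclear respiratory or C/EBP motif upstream. RefSeq gave a promoter, from 250 bases before to 50 bases after the start, for 67 of the 82 genes. The motifs were searched on both strands by their letters alone. GCGCANGCG, bound by NRF1, was found in 28.4% of the subunit promoters and in 6.47% of all 27018 promoters. CCGGAAG, bound by ETS factors such as GABP, was found in 23.9% against 9.12%. AAGATGGCG, bound by YY1, was found in 8.96% against 1.5%, the Ndufs4 promoter among them. TTGCNNAA, a C/EBP core, was found in 11.9% against 10.8%, and CCAAT in 44.8% against 37.9%. The C/EBP letters stood in the promoters of Atp5d, Uqcrfs1 and Uqcrh among the subunits called in a clone below, and in those of Cox6a1, Ndufa4, Ndufa5, Ndufs5 and Sdha among those called in neither. A match is a description of the letters, not evidence of binding.

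The next lines give the bases before the annotated gene start on GRCm38.p6, 5′ to 3′ on the minus strand, with the motif letters in capitals. The Uqcrh stretch is chr4:116075072-116075268, with C/EBP, CCAAT and ETS letters from positions -149, -52 and -10 of the RefSeq start. The Uqcrfs1 stretch is chr13:30545363-30545566, with C/EBP letters from -57. The Ndufb4 stretch is chr16:37654454-37654618, with NRF1 letters from -191 and reversed CCAAT letters from -151.
Uqcrh: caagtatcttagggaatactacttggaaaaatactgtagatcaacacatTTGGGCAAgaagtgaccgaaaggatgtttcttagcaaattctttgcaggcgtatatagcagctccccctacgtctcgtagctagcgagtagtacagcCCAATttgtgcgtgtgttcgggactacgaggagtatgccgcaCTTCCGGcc
Uqcrfs1: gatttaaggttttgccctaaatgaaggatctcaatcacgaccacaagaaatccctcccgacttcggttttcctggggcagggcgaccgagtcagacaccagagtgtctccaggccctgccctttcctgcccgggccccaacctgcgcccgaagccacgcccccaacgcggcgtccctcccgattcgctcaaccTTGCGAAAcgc
Ndufb4: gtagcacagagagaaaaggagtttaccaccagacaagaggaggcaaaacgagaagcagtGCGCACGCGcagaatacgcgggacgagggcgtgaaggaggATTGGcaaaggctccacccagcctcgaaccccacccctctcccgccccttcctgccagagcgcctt

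The subunit transcripts were abundant in all lines. Levels between genes are given as normalized reads per kilobase of merged exons, averaged over the 15 libraries. The α and β subunits of the ATP synthase head, of which β holds the catalytic sites, stood highest, with Atp5b (β) at 4075 and Atp5a1 (α) at 3852 per kilobase, followed by Cox8a, a small complex IV subunit, at 3267. The lowest tested gene was Cox7a1 at 49.8, next to Ndufb2 at 62.0, Ndufb4 at 62.5 and Atp5l at 62.7 per kilobase. Within complex II, the membrane anchor Sdhd stood at 2203, the flavoprotein Sdha at 864, the other anchor Sdhc at 407 and the iron-sulfur subunit Sdhb at 366 per kilobase. Several subunits have near-identical copies in the genome and some genes overlap others, and how the count treated both is not given in the sources used here, so such levels are uncertain.

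Of each pair of alternative subunits, the widely expressed form had the higher level. Cox4i1 stood at 2141 per kilobase, whereas Cox4i2, the lung form, had 0 to 3.6 normalized reads in a library. Cox6a1 stood at 2047 per kilobase, and its heart and muscle form Cox6a2 had 0 to 22.6 normalized reads. Cox6b1 stood at 2490 per kilobase, and the testis form Cox6b2 was read in 1 library, at 1.3 normalized reads. Cox8a, given above, had no read partner, since Cox8b and Cox8c had 0 reads in all 15 libraries, as had Cox7b2. A count of 0 allows up to 3 reads, or 2.65 to 4.01 normalized reads depending on the library. Cox7a2 stood at 1798 per kilobase against 49.8 for its heart and muscle form Cox7a1. The ATP synthase c subunit, whose 3 genes encode the same mature protein, was read from Atp5g3 at 1288, Atp5g2 at 501 and Atp5g1 at 367 per kilobase.

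As a share of all gene reads, the subunits had overlapping ranges with and without C/EBPα and C/EBPβ. Their share was 0.998 ± 0.106% in WTFL C1, 0.993 ± 0.0299% in dKO C1, 0.991 ± 0.0572% in dKO-LAP* C1, 1.04 ± 0.0495% in WTFL C2 and 1.09 ± 0.0824% in dKO C2 cells (mean ± SD, n = 3). Complex V had the largest share, at 0.405 to 0.548% of gene reads. Complex III took 0.107 to 0.118% in WTFL C2 and 0.0930 to 0.106% in dKO C2 libraries. It was the only complex whose share did not overlap between WTFL and dKO cells of a clone. The gap was narrow, from 0.1063% in dKO C2 replicate 2 to 0.1068% in WTFL C2 replicate 2. WTFL C1 libraries, at 0.0871 to 0.1056%, stood near the dKO C2 range. The subunits encoded by mitochondrial DNA took 1.47 to 1.82% of gene reads in WTFL C1 against 1.76 to 2.4% in dKO C1, and 1.79 to 1.97% in WTFL C2 against 2.07 to 2.85% in dKO C2 libraries, which do not overlap in C2. The reads were uneven over these genes, with mean levels in WTFL C1 of 94425 normalized reads for mt-Co1 but 32.9 for mt-Co2, 30.4 for mt-Co3, 29.7 for mt-Atp6 and 2.74 for mt-Atp8, so the shares hold little of these 4. These shares were not tested.

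**Figure D1:**
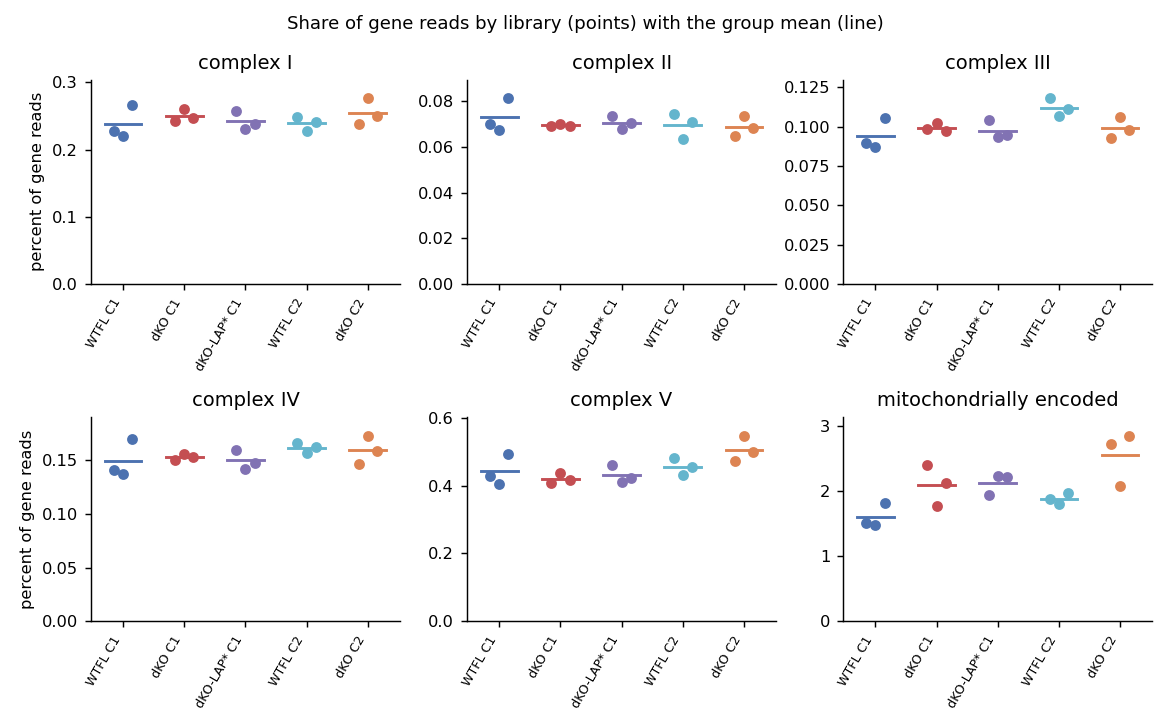
Share of gene reads (percent) taken by the subunits of each complex and by the mitochondrially encoded subunits, with 1 point per library and a line at the group mean (n = 3). Complex III is lower in dKO C2 than in WTFL C2 libraries, by a narrow margin. Complex V is at 0.472 to 0.548% in dKO C2 and 0.409 to 0.438% in dKO C1 libraries. These overlap the parental ranges of 0.433 to 0.482% in WTFL C2 and 0.4055 to 0.494% in WTFL C1. The mitochondrially encoded share is 2.07 to 2.85% in dKO C2 against 1.79 to 1.97% in WTFL C2 libraries.

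The first comparison sets these transcripts in dKO cells against WTFL cells of C1, which differ in both C/EBP genes. Few of them differed. In limma's test over all genes, with Benjamini-Hochberg adjusted p under 0.05 as the threshold, 2 subunits were called higher and 7 lower of 76, while 37.0% of all tested genes were called (17.1% higher and 19.9% lower). With quantile normalization the split turned to 7 higher and 3 lower, and without WTFL C1 replicate 3 it was 7 higher and 5 lower, so no direction of the whole group can be given. It was 0 and 8 without WTFL C1 replicate 2, 1 and 5 without WTFL C1 replicate 1, and 2 and 4 without dKO C1 replicate 3. The median log2 difference was -0.03 for the subunits and -0.01 for all tested genes, and the median size, sign ignored, was 0.10 against 0.27. In 16 subunits the groups did not overlap, against 45.2% of all tested genes. Complex I had 0 higher and 3 lower of 36, complex II 0 and 1 of 4, complex III 1 and 1 of 8, complex IV 0 and 0 of 11, and complex V 1 and 2 of 17. The complexes follow the symbols, so Ndufa4, which is now assigned to complex IV, is counted with complex I.

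The comparison in C2 gave more calls among the same genes. Here 16 subunits were called higher and 10 lower of 76, against 37.6% of all tested genes called (17.4% higher and 20.1% lower). The median log2 difference was -0.02 for the subunits and -0.03 for all tested genes, and the median size was 0.14 against 0.28. In 34 subunits the groups did not overlap, against 51.5% of all tested genes. Complex I had 10 higher and 4 lower of 36, complex II 1 and 1 of 4, complex III 1 and 3 of 8, complex IV 1 and 2 of 11, and complex V 3 and 0 of 17. The lower calls fell to 4 without dKO C2 replicate 1, to 5 without dKO C2 replicate 3 or WTFL C2 replicate 3, and to 6 without WTFL C2 replicate 1 or 2. The higher calls ran from 11 to 19 with a library left out. With quantile normalization the split was 14 and 6, and the lower calls were 4 with no filter. No subunit reached a log2 difference of 1 in either clone.

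Across both clones, 3 subunits were called lower in each (8.36% of all tested genes were), 0 were called higher in each (5.69%) and 1 was called in opposite directions (4.1%). In C1 alone 5 were called, in C2 alone 22, and in neither 45.

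**Figure D2:**
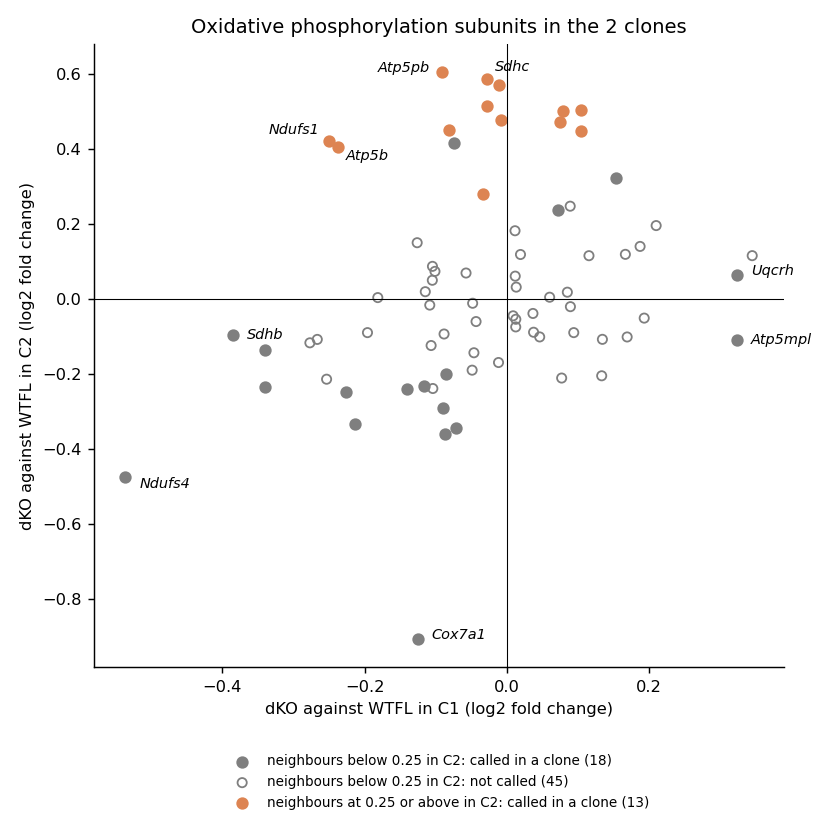
Log2 difference of dKO against WTFL cells in C1 (horizontal) and in C2 (vertical) for the 76 tested subunits, with 1 point per gene. Filled points were called in a clone, and orange marks the 13 genes whose chromosomal neighbours had a median of 0.25 or above in C2. Ndufs4 stands low on both axes, and the orange points lie at 0.28 to 0.60 in C2 and near or below 0.10 in C1.

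Ndufs4, an accessory subunit of complex I that is needed for its assembly and activity, was called lower in both clones with every library left out in turn. It lies on chr13:114287795-114388258 (mm10, minus strand). It had 852.3, 736.0 and 845.7 normalized reads in WTFL C1 and 524.4, 583.2 and 567.5 in dKO C1 libraries. In C2 it had 694.1, 695.1 and 666.0 in WTFL and 480.2, 519.1 and 480.5 in dKO libraries. Every dKO library lay below every WTFL library of both clones. The log2 difference was -0.54 (SE 0.078, limma adjusted p = 5.2e-05) in C1 and -0.47 (SE 0.078, adjusted p = 0.00018) in C2. The effects of the clones differed by 0.06 (95% interval -0.17 to 0.30, limma adjusted p = 0.72). Genes around Ndufs4 had a median log2 difference of -0.13 in C1 and 0.03 in C2.

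Ndufc2, an accessory membrane subunit of complex I on chr7:97400003-97407802 (plus strand), had 840.3, 777.5 and 797.9 normalized reads in WTFL C1 and 748.6, 643.0 and 694.6 in dKO C1 libraries. In C2 it had 974.0, 874.4 and 955.5 in WTFL and 749.0, 733.9 and 741.2 in dKO libraries. The groups did not overlap in either clone. This gave a log2 difference of -0.21 (SE 0.073, limma adjusted p = 0.031) in C1 and -0.33 (SE 0.073, adjusted p = 0.002) in C2. The C1 call was lost without WTFL C1 replicate 1 (limma adjusted p = 0.12), dKO C1 replicate 2 (0.14) or dKO C1 replicate 3 (0.071).

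Uqcrq, a small subunit of complex III on chr11:53427922-53430831 (minus strand), had 1042.3, 1009.3 and 956.8 normalized reads in WTFL C1 and 844.9, 904.1 and 821.7 in dKO C1 libraries. In C2 it had 1481.8, 1344.2 and 1304.6 in WTFL and 1162.3, 1208.2 and 1105.9 in dKO libraries. The dKO libraries were lower in each clone, while WTFL C2 and dKO C2 cells both stood above WTFL C1 cells. On the log2 scale the difference was -0.23 (SE 0.085, limma adjusted p = 0.047) in C1 and -0.25 (SE 0.085, adjusted p = 0.031) in C2. These calls sat near the threshold. In C1 the call was lost without WTFL replicate 1 (adjusted p = 0.14) or 2 (0.096) or dKO replicate 1 (0.1) or 3 (0.14), and in C2 without WTFL replicate 1 (0.13) or 2 (0.057) or dKO replicate 1 (0.063) or 3 (0.11), all by limma.

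Ndufs1, the large iron-sulfur subunit of complex I on chr1:63143596-63176833 (minus strand), was called in opposite directions. It had 1787.6, 1701.9 and 2110.3 normalized reads in WTFL C1 and 1465.5, 1581.7 and 1646.9 in dKO C1 libraries. In C2 it had 2135.1, 1893.6 and 1951.4 in WTFL and 2587.2, 2783.9 and 2626.8 in dKO libraries. The dKO libraries thus lay below their parents in C1 and above them in C2. The log2 difference was -0.25 (SE 0.080, limma adjusted p = 0.023) in C1 and 0.42 (SE 0.080, adjusted p = 0.00065) in C2, and the difference between the clones was 0.67 (SE 0.11, adjusted p = 0.00036). The C1 call was lost without WTFL C1 replicate 3 (limma adjusted p = 0.11) or dKO C1 replicate 1 (0.091).

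The other core subunits fixed for naming split by gene. Ndufv1, which carries the NADH site of complex I, differed by 0.01 (95% interval -0.19 to 0.21) in C1 and -0.05 (-0.25 to 0.16) in C2 on the log2 scale and was called in neither. Cox4i1, the largest nuclear subunit of complex IV, differed by 0.01 (-0.21 to 0.24) and 0.18 (-0.04 to 0.41) and was called in neither. Uqcrfs1, the Rieske iron-sulfur protein of complex III, differed by -0.09 (limma adjusted p = 0.37) in C1 and fell by 0.29 on the log2 scale in C2 (SE 0.074, adjusted p = 0.0055). It had 1673.0, 1519.3 and 1630.7 normalized reads in WTFL C2 and 1277.4, 1335.6 and 1324.7 in dKO C2 libraries, which do not overlap.

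The 4 subunits of complex II did not move together. Sdha was called in neither clone, with log2 differences of -0.11 (95% interval -0.30 to 0.07) in C1 and 0.02 (-0.16 to 0.20) in C2. Sdhb had 955.3, 929.9 and 1077.0 normalized reads in WTFL C1 and 727.1, 776.2 and 760.8 in dKO C1 libraries, a log2 difference of -0.38 (SE 0.084, limma adjusted p = 0.002). In C2 it had 881.3, 737.1 and 901.5 in WTFL and 764.8, 807.8 and 774.4 in dKO libraries, which overlap. Sdhb thus fell in C1, with a log2 difference of -0.10 in C2 (adjusted p = 0.39), and the difference between the clones did not pass the test (limma adjusted p = 0.083). Sdhd fell by 0.24 on the log2 scale in C2 (limma adjusted p = 0.04), a call that was kept in 1 of 6 fits with a library left out (adjusted p up to 0.15), lost without WTFL C2 replicate 1 or 3 or any dKO C2 library. Sdhc rose in C2, as follows.

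Beyond the naming rule, the other subunits called in C1 are given because their values were seen to pass. Atp5g3, a c subunit gene, fell by 0.34 on the log2 scale (limma adjusted p = 0.0044), and Atp5k, the e subunit of ATP synthase, also by 0.34 (adjusted p = 0.016, lost without WTFL C1 replicate 3 at 0.061 or dKO C1 replicate 2 at 0.053 or 3 at 0.064). Uqcrh, the hinge protein of complex III whose promoter is printed above, had 1150.7, 1129.2 and 1458.1 normalized reads in WTFL C1 and 1569.7, 1605.9 and 1474.8 in dKO C1 libraries. Its log2 difference was 0.32 (SE 0.091, limma adjusted p = 0.011), lost without WTFL C1 replicate 1 (0.057) or 2 (0.055). In C2 it was 0.06 (adjusted p = 0.62). Atp5mpl, a small ATP synthase subunit on chr12:111961375-111966977 (minus strand), had 733.2, 656.6 and 812.1 normalized reads in WTFL C1 and 971.7, 930.4 and 848.1 in dKO C1 libraries. Its log2 difference was 0.32 (SE 0.090, limma adjusted p = 0.01), lost without WTFL C1 replicate 2 (0.055).

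The test of the difference between the clones called 10 subunits with a higher dKO effect in C2 and 1 with a higher effect in C1, of 76, against 29.4% of all tested genes (15.1% and 14.3%). With quantile normalization these were 7 and 4. The single lower call became 3 without WTFL C1 replicate 3 or dKO C2 replicate 2, 2 without WTFL C1 replicate 2 and 0 without dKO C2 replicate 3. Sdhc, Atp5pb, Ndufs1, Atp5b and Cox5b were among the smallest adjusted p-values, and each of these 5 calls held with any 1 library left out.

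Sdhc, an anchor of complex II on chr1:171127165-171150603 (minus strand), had 1283.7, 1203.7 and 1253.3 normalized reads in WTFL C2 and 1735.6, 1956.7 and 1931.8 in dKO C2 libraries. The C1 libraries, dKO-LAP* included, ranged from 1077.6 to 1230.9, so dKO C2 cells stood above all other lines. The log2 difference was 0.59 (SE 0.063, limma adjusted p = 3.1e-06) in C2 and -0.03 (95% interval -0.16 to 0.11) in C1, and the clones differed by 0.61 (adjusted p = 1e-04). Atp5pb, the b subunit of the ATP synthase stalk on chr3:105942698-105960099 (minus strand), had 3558.2, 3071.0 and 3463.0 normalized reads in WTFL C2 and 5123.1, 5003.1 and 5188.2 in dKO C2 libraries. The C1 libraries, dKO-LAP* included, ranged from 2793.2 to 3487.9. Its log2 difference was 0.60 (SE 0.080, limma adjusted p = 2.4e-05) in C2 and -0.09 (-0.26 to 0.08) in C1, and the clones differed by 0.70 (adjusted p = 0.00026).

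Atp5b, the catalytic β subunit on chr10:128083273-128090391 (plus strand), had 18800.9, 17122.8 and 17871.1 normalized reads in WTFL C2 and 22085.6, 25649.2 and 23552.4 in dKO C2 libraries. Its log2 difference was 0.40 (SE 0.092, limma adjusted p = 0.0026) in C2 and -0.24 (-0.43 to -0.04, adjusted p = 0.054) in C1. Cox5b, a zinc-binding subunit of complex IV on chr1:36691449-36693681 (plus strand), had 1529.6, 1441.7 and 1661.9 normalized reads in WTFL C2 and 1969.9, 2210.4 and 2144.2 in dKO C2 libraries, a log2 difference of 0.45 (SE 0.085, adjusted p = 0.00058). For Atp5b and Cox5b too, the dKO C2 libraries lay above the other 12 libraries used.

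**Figure D3:**
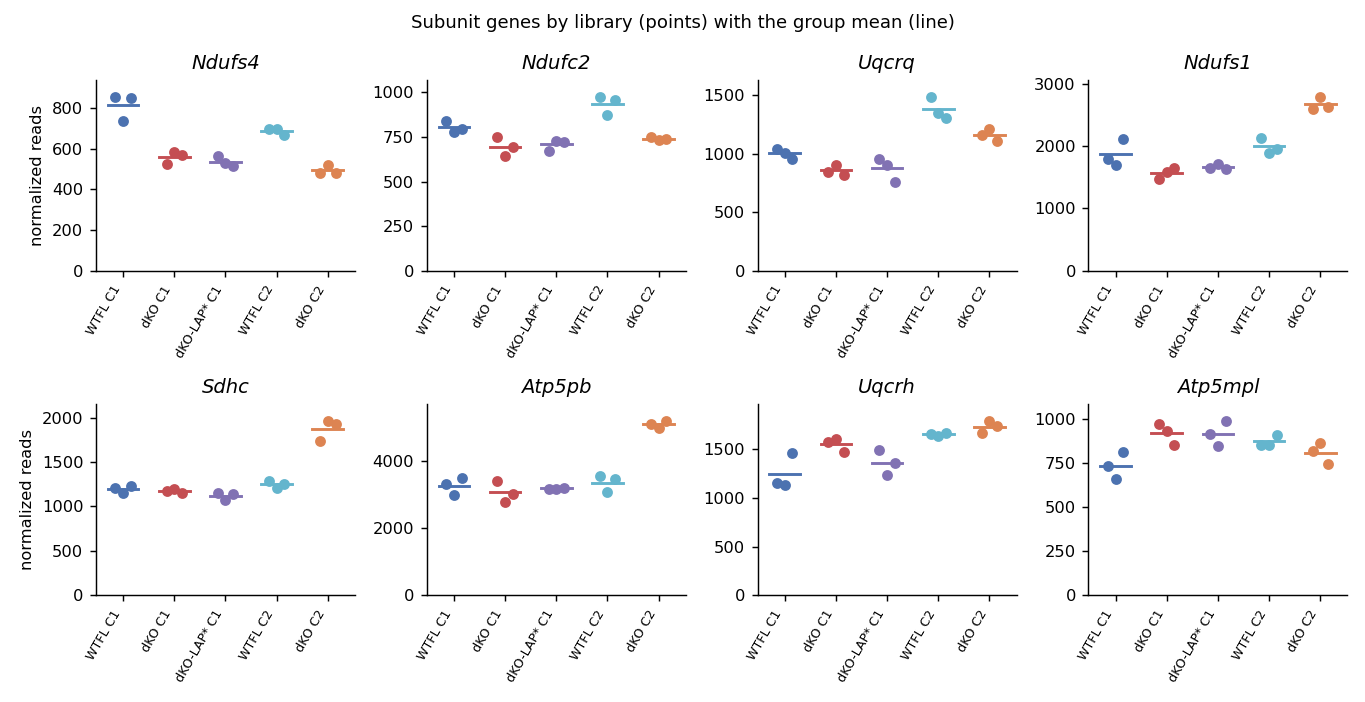
Normalized reads of 8 subunit genes in each library (points) with the group mean (line, n = 3), each panel on its own axis from 0. Ndufs4, Ndufc2 and Uqcrq are lower in dKO cells of both clones, Ndufs1 is lower in dKO C1 and higher in dKO C2, Sdhc and Atp5pb are higher in dKO C2 alone, and Uqcrh and Atp5mpl are higher in dKO C1 than in WTFL C1.

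The subunits that rose in C2 lay in a few chromosomes. This was seen after the calls were made, so the values are a description. For each tested subunit, the other tested genes within 5 Mb that are not in the group were taken as neighbours (12 to 208 genes, median 70.5), and their median log2 difference was computed. In C2, 13 subunits had neighbours with a median of at least 0.25, a limit set after the values were seen, where the neighbour medians ran from 0.30 to 0.61 and the next one below was 0.15. All 13 were called higher, with log2 differences of 0.28 to 0.60. On chromosome 1 these included Cox5b, Ndufa10, Ndufb3, Ndufs1 and Sdhc. On chromosome 10 they were Atp5b, Atp5d, Ndufa12, Ndufs7 and Uqcr11. Atp5pb on chromosome 3 and Ndufv2 on chromosome 17 completed them, with neighbour medians of 0.42 and 0.61. With libraries left out in turn, 10 of the 13 calls held each time. Ndufa12 (limma adjusted p = 0.052) and Uqcr11 (0.057) were not called without dKO C2 replicate 2, nor Atp5d without that library (0.09), dKO C2 replicate 3 (0.055) or WTFL C2 replicate 2 (0.1). Among other genes with such neighbours in C2, 55.1% were called higher and 7.27% lower, of 1486. These genes were chosen by the same limit on their neighbours, so their shares are a description and fixed in part by that choice.

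The remaining 63 subunits held 3 higher and 10 lower calls in C2 and had a median log2 difference of -0.07. The 3 that rose were Ndufa1, Ndufa7 and Ndufa13, accessory subunits of complex I, with log2 differences of 0.24 (limma adjusted p = 0.043), 0.32 (0.023) and 0.41 (0.0054). The Ndufa13 call held with each library left out, that of Ndufa7 was lost without WTFL C2 replicate 2 (0.11) or dKO C2 replicate 2 (0.078) or 3 (0.058), and that of Ndufa1 held only without dKO C2 replicate 1 (up to 0.17 otherwise). The 10 that fell were Ndufs4, Ndufc2, Uqcrq, Uqcrfs1, Uqcrc1, Ndufb4, Ndufb9, Sdhd, Cox8a and Cox7a1. Uqcrc1, a core protein of complex III, fell by 0.36 on the log2 scale (SE 0.091, limma adjusted p = 0.0054), and Ndufb4, whose promoter is printed above, by 0.34 (adjusted p = 0.046). The Ndufb4 call was lost without replicate 1 or 3 of either C2 line (0.089 to 0.16), and that of Ndufb9 without any C2 library other than WTFL C2 replicate 1 (0.06 to 0.11). Among the other genes without such neighbours, 12.3% were called higher and 22.0% lower, of 11017. Across the 76 subunits, the log2 difference of a gene and that of its neighbours had a Pearson correlation of 0.73 and a Spearman correlation of 0.51 in C2, and of 0.28 and 0.23 in C1. Neighbours are shared between nearby subunits and all values come from the same libraries, so these are descriptions.

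**Figure D4:**
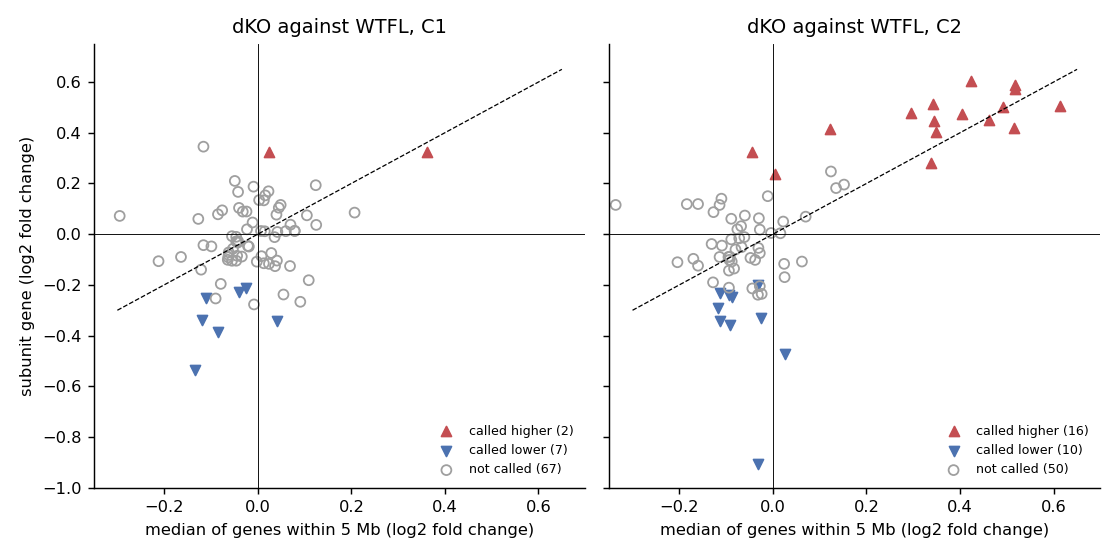
Log2 difference of each subunit gene (vertical) against the median log2 difference of the other genes within 5 Mb (horizontal), for dKO against WTFL cells of C1 (left) and C2 (right), with the dashed line at equality. In C2 the 13 genes whose neighbours reach 0.25 or more are all called higher and lie close to the line, and in C1 Atp5mpl is the single gene with such neighbours.

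The chromosomes themselves differed by line. Over genes outside the group, the median log2 difference of dKO against WTFL cells in C2 was 0.43 on chromosome 1 (748 genes) and 0.27 on chromosome 10 (621 genes), against -0.04 and -0.02 in C1. In C1 it was 0.34 on chromosome 12 (451 genes), where Atp5mpl lies, whose neighbours had a median of 0.36 in dKO and 0.28 in dKO-LAP* cells against WTFL. Among other genes with neighbours at 0.25 or above in C1, 52.3% were called higher and 9.95% lower, of 392, against 16.1% and 20.3% of those without. Between the WTFL lines, chromosome 1 differed by -0.02 and chromosome 10 by 0. Locally, the neighbours of Sdhc were lower in WTFL C2 than in WTFL C1 cells by a median of -0.34. Relative to the WTFL C2 mean, the 13 subunits had a median of 0.38, 0.59 and 0.44 in the dKO C2 libraries and their neighbours one of 0.43, 0.44 and 0.45. In the other 12 libraries the medians lay between -0.19 and 0.08 for the 13 genes and between -0.05 and 0.05 for their neighbours. The 13 genes were chosen by the mean of their neighbours over these same C2 libraries, so a shift on average was fixed by that choice. Its size in each dKO C2 library is a description. After each library's values were centred on the neighbours, 4 subunits were called higher and 4 lower in C2, by limma. None of the 13 was among the higher ones. The centring takes away the same neighbour values by which the 13 were chosen, so this loss was largely fixed in advance. DNA copy number was not measured, and the part of copy number or of any regional change in these values was not tested.

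The next comparison sets dKO-LAP* against dKO cells of C1. No subunit was called in either direction of 76 by limma, edgeR or DESeq2, and each found 1 at an unadjusted p under 0.05, while 4.46% of all tested genes were called (1.43% higher and 3.03% lower). The 95% intervals of 75 of the 76 log2 differences lay within ±0.5, with a median width of ±0.19, so for those 75 genes a larger difference lies outside the interval. The exception was Cox7a1, at 0.36 (95% interval -0.31 to 1.04), read at 12.5 to 30.5 normalized reads in the libraries compared. The lowest value was that of Ndufa3, an accessory subunit of complex I, at -0.23 (limma adjusted p = 0.13). In 6 subunits the groups did not overlap, against 24.1% of all tested genes. Ndufs4 had 565.8, 527.3 and 514.3 normalized reads in dKO-LAP* libraries, which overlap those of dKO C1 cells, with a log2 difference of -0.06 (95% interval -0.22 to 0.11).

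**Figure D5:**
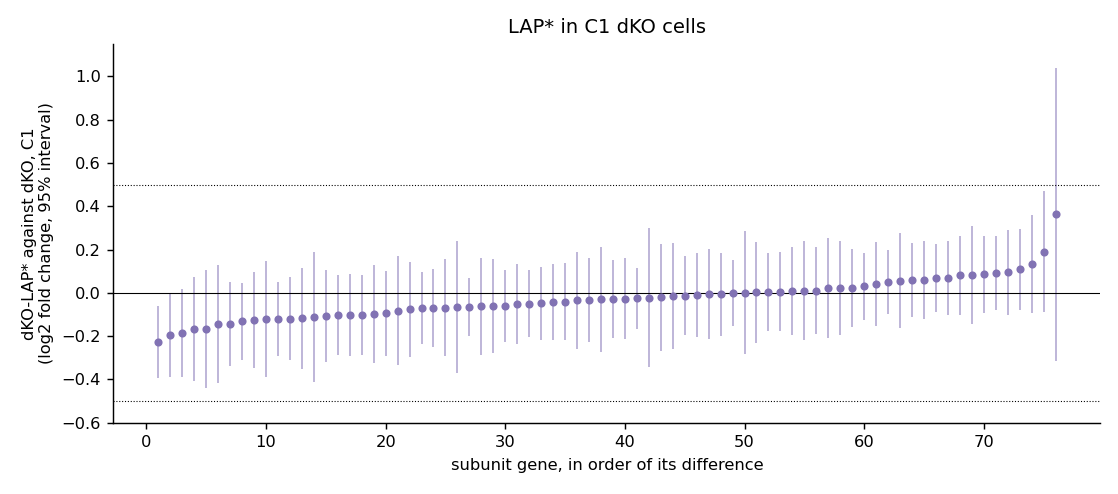
Log2 difference of dKO-LAP* against dKO C1 cells for the 76 tested subunits in order of size, with 95% intervals as lines and dotted lines at -0.5 and 0.5. All but the last interval, that of Cox7a1, lie between the dotted lines.

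Against WTFL C1 cells, 1 subunit was called higher and 4 lower in dKO-LAP* cells, against 32.5% of all tested genes called (14.2% higher and 18.3% lower). In 10 subunits the groups did not overlap, against 40.9% of all tested genes. This comparison shares its WTFL libraries with that of dKO C1 cells. Ndufs4 differed by -0.60 (SE 0.078, limma adjusted p = 2e-05), next to -0.54 in dKO cells. Sdhb differed by -0.42 (adjusted p = 0.00098) next to -0.38, Atp5g3 by -0.25 (0.028) next to -0.34, Atp5k by -0.32 (0.025) next to -0.34, and Atp5mpl by 0.32 (0.013) next to 0.32. With quantile normalization the counts were 3 higher and 2 lower, and without WTFL C1 replicate 3 they were 4 and 2. They were 0 and 4 without WTFL C1 replicate 2, 1 and 7 without dKO-LAP* replicate 1, 1 and 2 without dKO-LAP* replicate 2, and 0 and 3 without dKO-LAP* replicate 3. Atp5k was not called without WTFL C1 replicate 3 (0.091) or dKO-LAP* replicate 2 (0.11). Atp5g3 was not called without WTFL C1 replicate 3 (adjusted p = 0.13) or dKO-LAP* replicate 2 (0.08) or 3 (0.081), nor Atp5mpl without WTFL C1 replicate 2 (0.068) or dKO-LAP* replicate 3 (0.064), by limma.

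The last comparison is of the parental lines. Between WTFL C2 and WTFL C1 cells, 10 subunits were called higher and 4 lower in C2 of 76, against 41.0% of all tested genes (19.7% higher and 21.3% lower). In 18 subunits the groups did not overlap, against 50.6% of all tested genes. Quantile normalization gave 13 and 1. The counts were 12 and 0 without WTFL C1 replicate 3, 6 and 7 without replicate 2, and 6 and 2 without replicate 1 of that line. They were 7 and 2 without WTFL C2 replicate 2 and 6 and 2 without WTFL C2 replicate 3. Complex III gave 4 higher and 0 lower of 8, namely Uqcrq at 0.46 (limma adjusted p = 0.00043), Uqcrh at 0.42 (0.0016), Uqcrc1 at 0.37 (0.0042) and Uqcrfs1 at 0.23 (0.021) on the log2 scale. The groups did not overlap for any of these 4 genes. Of them, Uqcrq, Uqcrc1 and Uqcrfs1 were those called lower in dKO C2 than in WTFL C2 cells, a comparison with the same WTFL C2 libraries. The Uqcrfs1 call was lost without WTFL C1 replicate 1 (adjusted p = 0.078) or 2 (0.078) or WTFL C2 replicate 1 (0.08) or 3 (0.065), by limma.

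Cox7a1, the heart and muscle form of a complex IV subunit, was the lowest of the tested genes and had the widest spread. It had 17.4, 25.2 and 22.4 normalized reads in WTFL C1, 32.9, 50.3 and 44.0 in WTFL C2, and 15.7, 20.4 and 32.2 in dKO C2 libraries. The log2 difference was 0.93 (SE 0.32, limma adjusted p = 0.029) between the WTFL lines and -0.91 (SE 0.32, adjusted p = 0.035) for dKO against WTFL in C2. The dKO call was lost without WTFL C2 replicate 2 (limma adjusted p = 0.12) or 3 (0.091) or dKO C2 replicate 1 (0.14) or 2 (0.087), and the WTFL call without WTFL C1 replicate 1 (0.1) or 3 (0.052) or WTFL C2 replicate 2 (0.11) or 3 (0.077). Of 4 muscle and heart markers, Myh6, Myh7 and Actc1 were at 0, and the summed level of the list was 0 to 2.04 normalized reads in WTFL C1, 15.9 to 33.0 in WTFL C2 and 4.18 to 10.7 in dKO C2 libraries. Their part in the result was not tested. Its partner Cox7a2 differed by -0.21 (adjusted p = 0.099) in C2 and -0.25 (0.053) in C1 on the log2 scale, below the threshold. Among the c subunit genes, Atp5g1 and Atp5g2 were called in no comparison. Cox6a1 and Cox6b1 were called in none either, and Cox8a fell by 0.23 on the log2 scale in C2 (limma adjusted p = 0.048), a call lost with each of the 6 libraries left out (up to 0.15).

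The other genes of the pathway were taken as lists and counted by the same test. A list of genes beside the symbol pattern held Ndufab1, Cox7a2l, Ndufb1-ps, Cyc1, Cycs, Atpif1 and Dmac2l as tested genes. Of these 7, 4 were called higher and 1 lower in C1, and 1 and 1 in C2, with medians of 0.26 and 0.17. In C1, Ndufab1 (limma adjusted p = 0.83) and Cyc1 (0.49) were not called. Not all 7 encode subunits, so the counts do not speak of subunits alone. These counts are 71.4% of the list called in C1 and 28.6% in C2, next to 37.0% and 37.6% of all tested genes. Cycs, cytochrome c, which carries electrons from complex III to IV, fell by 0.83 on the log2 scale in C1 (limma adjusted p = 7.8e-07) and by 0.38 in C2 (0.0014), and Dmac2l, also known as ATP synthase factor s, rose by 0.84 in C1 (0.0014) next to 0.46 in C2 (0.052). Of 11 tested subunits encoded by mitochondrial DNA, 2 were called higher in C1 and 3 in C2 with 0 lower, and the list's median was 0.30 and 0.29, or 18.2% and 27.3% of the list called next to the same 37.0% and 37.6%. The low-level mt-Co2, mt-Co3, mt-Atp6 and mt-Atp8 had log2 differences of -0.29, -0.27, -0.26 and -0.75 in C2, none called. mt-Cytb, the cytochrome b of complex III, rose by 0.48 and 0.75, and mt-Nd4, a proton-pumping subunit of complex I, by 0.50 and 0.70 in C1 and C2 (adjusted p from 0.0057 to 0.00014).

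The assembly factors are set beside the 37.0% of all tested genes called in C1 and 37.6% in C2. Complex I factors had 1 higher and 1 lower in C1 and 1 and 2 in C2 of 14. Nubpl, which delivers iron-sulfur clusters to complex I, rose by 0.51 in C1 (limma adjusted p = 0.018) and fell by 0.57 in C2 (0.0099), and Ndufaf7 rose by 0.38 in C2 (0.012) on the log2 scale. Sdhaf1, a factor for the Sdhb iron-sulfur clusters, rose by 0.65 in C1 (0.0069) as the single call of 4 complex II factors, with 0 in C2. Uqcc3 rose by 0.41 in C1 (0.019) as the single call of 6 complex III factors, with 0 in C2. Complex IV factors had 1 higher and 2 lower in C1 and 4 and 2 in C2 of 19. There Cox20 differed by -0.20 (0.28) and 0.88 (0.00013), and Coa5 by -0.49 (0.00041) and 0.34 (0.0067), in C1 and C2, both on chromosome 1. Of 3 ATP synthase factors, Tmem70 rose in C2 by 0.41 (0.0078), also on chromosome 1, and 0 were called in C1.

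Among 16 regulators of mitochondrial gene expression, 3 were called higher and 2 lower in C1, and 6 and 1 in C2, or 31.3% and 43.8% called next to 37.0% and 37.6% of all tested genes. These counts hold Ppargc1a in both clones, which passed the filter of 10 normalized reads through 3 libraries, 1 each of dKO C1, dKO-LAP* C1 and dKO C2 cells and 0 of WTFL cells, so its call is no support for a rise. Ppargc1a, the coactivator PGC-1α, had a log2 difference of 1.88 (SE 0.58, limma adjusted p = 0.018) in C1 and 2.12 (SE 0.58, adjusted p = 0.0089) in C2, at mean levels of 1.91 and 1.31 normalized reads in WTFL and 8.59 and 8.16 in dKO cells of C1 and C2, so the change is one of few reads. Its relative Ppargc1b fell by 1.05 in C1 (0.024) next to -0.26 in C2 (0.59), and Pprc1 rose by 0.37 in C2 (0.006) next to 0.05 in C1 (0.72). Nrf1 differed by -0.09 and 0.00, Gabpa by -0.19 and -0.07, Gabpb1 by 0.04 and 0.03, and Yy1 by 0.33 (0.051) and 0.12 in C1 and C2, with none called. Nrf1, Yy1 and GABPα, encoded by Gabpa, bind the letters searched for in the promoters, and Gabpb1 encodes a partner subunit of GABPα. Tfam, which packs mitochondrial DNA and helps its transcription, differed by 0.17 in C1 (limma adjusted p = 0.055) and rose by 0.73 in C2 (5e-07). Polrmt, the mitochondrial RNA polymerase, differed by 0.09 (0.5) in C1 and 0.47 (0.00089) in C2. Tfb2m, the initiation factor of that polymerase, differed by 0.26 (0.19) in C1 and 0.69 (0.0021) in C2. Tfam and Polrmt lie on chromosome 10 and Tfb2m on chromosome 1. Polg and Twnk, the polymerase and helicase of mitochondrial DNA, rose in C1 by 0.50 (0.00016) and 0.38 (0.0086), with -0.18 (0.1) and 0.00 (0.99) in C2. Esrra fell by 0.30 in C1 (0.01) next to -0.21 in C2 (0.053), Tfb1m fell by 0.37 in C2 (0.03) next to -0.06 in C1, Myc rose by 0.53 in C2 (0.0032) next to -0.03 in C1, and Mterf1a was called in neither.

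The citric acid cycle, which feeds the chain with NADH and succinate, had 1 higher and 4 lower in C1 and 3 and 8 in C2 of 17, with medians of -0.11 and -0.15. That is 29.4% and 64.7% of the list called, next to 37.0% and 37.6% of all tested genes, and 47.1% lower in C2 next to 20.1%. Dlat, the E2 subunit of pyruvate dehydrogenase, fell by 0.56 and 0.37, and Ogdh, of the 2-oxoglutarate dehydrogenase complex, by 0.24 and 0.59 in C1 and C2 on the log2 scale (limma adjusted p from 0.044 to 3.2e-05). Mitochondrial import genes had 2 higher and 5 lower in C1 and 5 and 1 in C2 of 20, or 35% and 30% called. Timm9, a chaperone of the intermembrane space, rose by 0.50 and 0.67 (0.0015 and 0.00013), and Hspe1, the partner of the matrix chaperone HSP60, differed by -0.10 (0.63) and 0.82 (0.00039). Mitochondrial ribosomal proteins had 3 higher and 9 lower in C1 and 11 and 7 in C2 of 78, with medians of -0.08 and -0.02, or 15.4% and 23.1% called. Mrpl53 differed by 1.17 in C1 (limma adjusted p = 0.006) and 0.56 in C2 (0.16). This was a change of few reads, from a mean of 6.94 normalized reads in WTFL C1 to 16.7 in dKO C1 cells. The filter level was reached by every library of the dKO and dKO-LAP* lines, 1 of WTFL C2 and 0 of WTFL C1. Its call, among the 3 higher in C1, is thus no support for a rise. Mrps6 fell by 0.48 in C1 (0.033) next to -0.33 in C2 (0.13). In dKO-LAP* against dKO cells, 0 genes were called in each of these lists by limma, with 0 to 3 genes a list at an unadjusted p under 0.05, next to 4.46% of all tested genes called.

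The neighbour medians were also computed for these lists. Of the 184 listed nuclear genes tested, 24 had neighbours with a median of at least 0.25 in C2, and 22 of them were called higher and 0 lower, with a median log2 difference of 0.51, next to 55.1% higher and 7.27% lower of the 1486 genes outside the group with such neighbours. Of 159 with neighbours below that limit, 10 were called higher and 22 lower, with a median of -0.04, next to 12.3% and 22.0% of 11017. Pdhb had too few neighbours for a value, and the genes of mitochondrial DNA were not placed. The limit was set after the values were seen, so these counts are a description. Cox20, Coa5, Tmem70, Hspe1, Tfam and Tfb2m were among the 24, named here after their values were seen. In C1, Dmac2l, Nubpl and Timm9 lie on chromosome 12, where 51.2% of the 451 genes outside the group were called higher in dKO cells, as does Ndufb1-ps, a subunit outside the pattern that rose by 0.51 there (limma adjusted p = 0.00012). The part of position in these values was not tested.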

How the data were processed

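Poly(A) RNA was sequenced from 15 libraries of 5 cell lines, 3 per line, taken at different time points. Per the labels and the study's methods, the authors aligned paired reads to mm10 with STAR 2.5.3a, counted them per gene with HTSeq 0.10.0 and normalized them with DESeq2 1.26.0. The gene annotation and the strand setting of the count are not given in the sources used here. The deposited table holds normalized read counts, that is, a signal in which whole reads were divided by a library's size factor. Dividing by the size of 1 read gave whole reads within 0.1 for at least 99.98% of the values in each library. The 5 counter rows, 22.4 to 26.2% of reads, were left out, and 3 value columns that match no sample label were not used.

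The main test was limma 3.58.1 (R 4.3.3) with a trended prior on log2(normalized reads + 1) in all 15 libraries, 1 mean per group, two-sided, for genes that reached 10 normalized reads in 3 or more libraries. This scale understates changes of low genes. P-values were adjusted by Benjamini-Hochberg over all 12673 genes, and the threshold was 0.05. The study's tool, DESeq2 (here 1.42.0), and edgeR 4.0.16 were run on the recovered reads as alternatives, since the deposited unit is normalized. Other alternatives were pseudocounts of 0.1 and 5, no filter, quantile normalization, only the groups compared, a replicate block, each library left out and a log2 limit of 1. Centring on neighbours within 5 Mb was added after seeing the data. The fits were tested on simulated data with planted log2 changes of 1 or more either way. These are larger than any subunit's difference here, so the simulation does not cover the smaller differences reported. Intervals cover the spread between libraries, and the limit of 3 reads behind a 0 covers counting error only.

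Gene positions and merged exon lengths are from GENCODE vM21, which holds all 82 genes, 80 under the same symbol, and promoters from RefSeq for GRCm38.p6. Subunits were named with values when called the same way, or opposite ways, in both clones, when among the 6 smallest adjusted p-values for the difference between the clones, when called with LAP*, when a member of a paralogue set, and for complex II and a core subunit of each other complex. For each related list, up to 2 called genes with the largest mean absolute change, and all regulators, were named. The members and lists were chosen with earlier results of these data known. The counts cover all genes, and the values of a few named by these rules are not reported here.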

Additional observations from a re-analysis of the deposited data

Results flagged for a closer look

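The difference between dKO and WTFL cells was not the same in the clones by limma's interaction test for the 10 subunits given here, as the log2 difference in C2 minus that in C1. It was 0.7 for Atp5pb (limma adjusted p = 0.00026), 0.67 for Ndufs1 (0.00036), 0.64 for Atp5b (0.0015), 0.61 for Sdhc (1e-04) and 0.53 for Cox5b (0.0032). It was 0.54 for Ndufs7 (0.016), 0.49 for Ndufa13 (0.021), 0.42 for Ndufb3 (0.034) and 0.4 for Ndufv2 (0.021). It was -0.43 for Atp5mpl (0.017), which was not called without dKO C2 replicate 3 (0.052). Of the 12 fits with a library left out, Ndufv2 was called in 11 and not without WTFL C2 replicate 2 (0.059). Ndufa13 was called in 8, not without dKO C1 replicate 3, WTFL C2 replicate 1 or dKO C2 replicate 2 or 3 (up to 0.052). Ndufb3 was called in 5, with replicates of all 4 lines among those it needed (up to 0.085). The other 6 given here were called in all 12. Of these, all but Ndufa13 and Atp5mpl belong to the 13 genes whose neighbours were shifted upward in C2, and Atp5mpl is the 1 gene whose neighbours were shifted upward in C1. Ndufa13 had neighbours with a median of 0.12 in C2.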

How the results depend on the processing

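The counts of subunits called higher and lower moved with several settings. Quantile normalization gave 7 and 3 in C1, 14 and 6 in C2, 7 and 4 for the difference between the clones, 3 and 2 for dKO-LAP* against WTFL cells and 13 and 1 between the WTFL lines. Fitting only the groups compared gave 1 and 4 in C1, 0 higher for dKO-LAP* against WTFL cells and 2 lower between the WTFL lines. DESeq2 gave 4 higher in C1, and no filter gave 4 lower in C2. A log2 limit of 1 left 0 in every comparison. Centring on the neighbours, chosen after seeing the data, gave 4 and 4 in C2, 4 and 0 for the difference, 0 and 7 for dKO-LAP* against WTFL cells and 2 lower between the WTFL lines. By construction it removes shifts shared with neighbours, and it turned the sign of Atp5mpl in C1 (-0.037), of Atp5d (-0.058), Ndufv2 (-0.11), Ndufs1 (-0.10) and Cox5b (-0.012) in C2, of Atp5mpl (0.13), Ndufv2 (-0.17) and Ndufb3 (-0.15) in the difference, and of Ndufb11 between the WTFL lines (0.042). The cause of the other changes was not tested.

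With 1 library left out, the counts higher and lower ran over 0 to 7 and 4 to 8 in C1, 11 to 19 and 4 to 10 in C2, 8 to 12 and 0 to 3 for the difference, 0 and 0 for dKO-LAP* against dKO, 0 to 4 and 2 to 7 for dKO-LAP* against WTFL and 6 to 12 and 0 to 7 between the WTFL lines. Of the 65 calls of single subunits over all comparisons, pseudocount 5 kept 65, pseudocount 0.1 kept 64, edgeR 63, DESeq2 60, only the groups compared 53, no filter 51, quantile normalization 47 and centring on the neighbours 25 (31 others fell below the threshold and 9 turned sign).

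The replicate block gave 2 and 7 in C1, 15 and 7 in C2, 9 and 1 for the difference, 0 and 0 for dKO-LAP* against dKO, 1 and 5 for dKO-LAP* against WTFL and 10 and 4 between the WTFL lines, and 60 of the 65 calls were kept. Same-numbered libraries had correlations of -0.174 to 0.297 of their deviations, so the numbers do not pair the samples.

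Each line is 1 clone, so no test speaks of clones in general. With 3 libraries a group, the 95% interval of a subunit's log2 difference was ±0.135 to ±0.678 wide within a clone or between the WTFL lines and ±0.191 to ±0.958 for the difference between the clones.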
